A study of Salmo salar with 45 samples.

Results

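The 100 genes with the highest mean level in the distal intestine of 9 control Atlantic salmon are described here, with their levels in all 5 diets of a feeding trial. They were taken from the 69389 genes of the deposited tables by their mean TPM in the control fish, after 3 genes that the rule names had been set aside, and 0 of those 3 would have entered the list. TPM is a count divided by the exon length of its gene and scaled to the same total in every fish, which lets genes of different length be compared. The genes were chosen by their levels in the control fish, so the control levels are a description, and so is how often the genes lay above or below control in the other diets.

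The RNA came from pre-smolt salmon kept in fresh water and fed for 61 days. The LP20, LP100 and LP500 diets held, per kg of feed, 20 mg, 100 mg or 500 mg of Feed LP20, a product made from heat-killed Lactiplantibacillus plantarum strain L-137. The MG diet held 2 g of the β-glucan MacroGard per kg of feed and was the positive control. The CD diet held neither additive, and each diet had 9 fish, 45 in all. Per the study's methods, the 9 fish of a diet came from 3 tanks of 3 fish, but the labels do not say which fish shared a tank, so the p-values below treat fish as separate samples.

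The distal intestine of salmon takes up intact proteins by endocytosis and degrades them in large vacuoles above the nucleus of its enterocytes, which are rich in lysosomal enzymes. It also reabsorbs bile acids, while most peptides and fats are absorbed further forward. A small number of very abundant messages usually makes up much of the RNA of such a specialised epithelium, and next to them stand the genes that every growing cell uses, such as those of ribosomal proteins.

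The 45 libraries held between 9660750 and 22377591 counted fragments, with a median of 14634308, and every one of the 100 genes had at least 563 fragments in every fish. The 100 genes took 21.8% ± 0.953 of the fragments of CD fish (SD, n = 9). All 100 passed the filter on low counts, among 31729 genes tested. slc10a2, the sodium-dependent bile acid transporter of the ileum in mammals, was 1 of the 100, at 1282 ± 397 TPM in CD fish, and the intestinal cadherin cdh17 stood below them at 911 TPM. slc15a1, a peptide transporter of the absorptive epithelium further forward, averaged 0.851 TPM in CD fish. Of the 2 exocrine pancreas markers matched, the digestive protease ctrl averaged at most 2.97 TPM and cpb1, a carboxypeptidase, at most 0.359 TPM in any diet. Of the 2 liver markers matched, the fibrinogen chain fgg averaged at most 0.168 TPM in any diet, while apoa2, apolipoprotein A-II, averaged between 139 and 192 TPM.

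Of 2 fish that held many of the highest and also many of the lowest values, the first was LP20 replicate 5. It had 79.5 TPM of slc15a1, whereas the other 44 fish had between 0.0964 and 4.27 TPM. It held the highest value of all 45 fish for 11 of the 100 genes and the lowest for 20. The second was LP500 replicate 1, which held the highest value for 19 genes and the lowest for 22, together with the highest acta2, smooth muscle actin, at 3068 TPM, against 231 to 1741 TPM in the other fish. Other fish were extreme in 1 direction. LP100 replicate 7 held the highest value for 15 genes and the lowest for 1, and MG replicate 1 held the lowest for 13 and the highest for 1. The scatter of extremes per fish shows all of them.

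**Figure D1:**
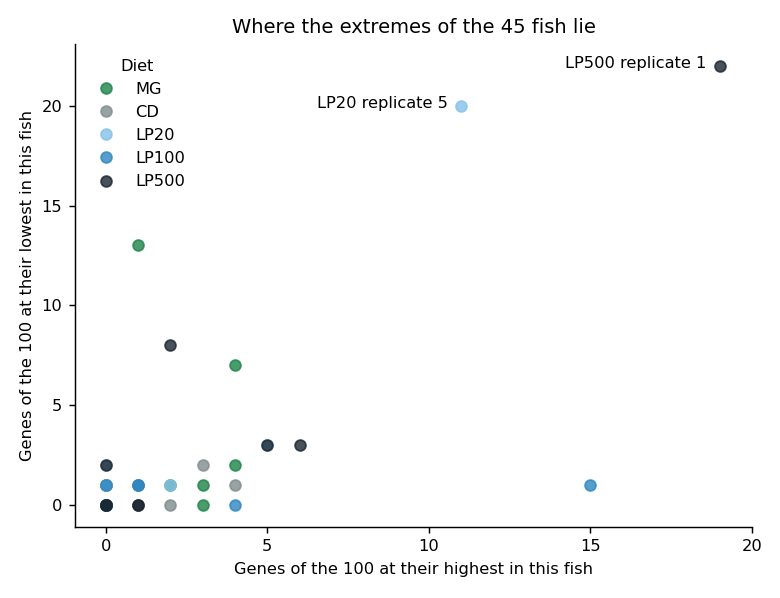
Number of the 100 genes that reached their highest level of the 45 fish (horizontal) and their lowest level (vertical) in each fish, with 1 point per fish coloured by diet. LP500 replicate 1 (19 highest, 22 lowest) and LP20 replicate 5 (11 highest, 20 lowest) lie in the upper right, and LP100 replicate 7 (15 highest, 1 lowest) lies far to the right.

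The 100 genes together made up 30.2% ± 1.08 of all TPM in CD fish (SD, n = 9), although they were 100 of 69389 genes. The first gene, LOC106560797 (ENSSSAG00000008530, Ssal_v3.1 chr1:11988276-11996885, plus strand), alone held 6.75% ± 0.645, the first 4 held 12% and the first 10 held 15.2%. The lowest, median and highest CD fish had 61292, 64277 and 76887 TPM of LOC106560797, and it was the most abundant gene in each of the 45 fish. The reference annotation gives it no function. At rank 2, epdl2 (chr11:94219109-94232856) is named for ependymin-like proteins, which are secreted glycoproteins, and had 15392, 20027 and 23686 TPM in the lowest, median and highest CD fish. LOC106603912 (chr4:79971740-79973230), without a named function, held rank 4 with a mean of 14390 ± 1863 TPM.

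Names were the main limit to describing the list by function. A symbol other than a locus number was available for 31 genes, 3 more locus numbers had an older symbol, and 66 genes had no name that says what they encode. Those 66 genes held 19.8% of all TPM in CD fish. Of the 34 named genes, 29 fell into the role lists used below, and the other 5 were epdl2, ybx1 (a Y-box protein that binds nucleic acids), sat1a.2 (named for spermidine and spermine acetyltransferase), tdx and crip1 (a LIM domain protein).

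**Figure D2:**
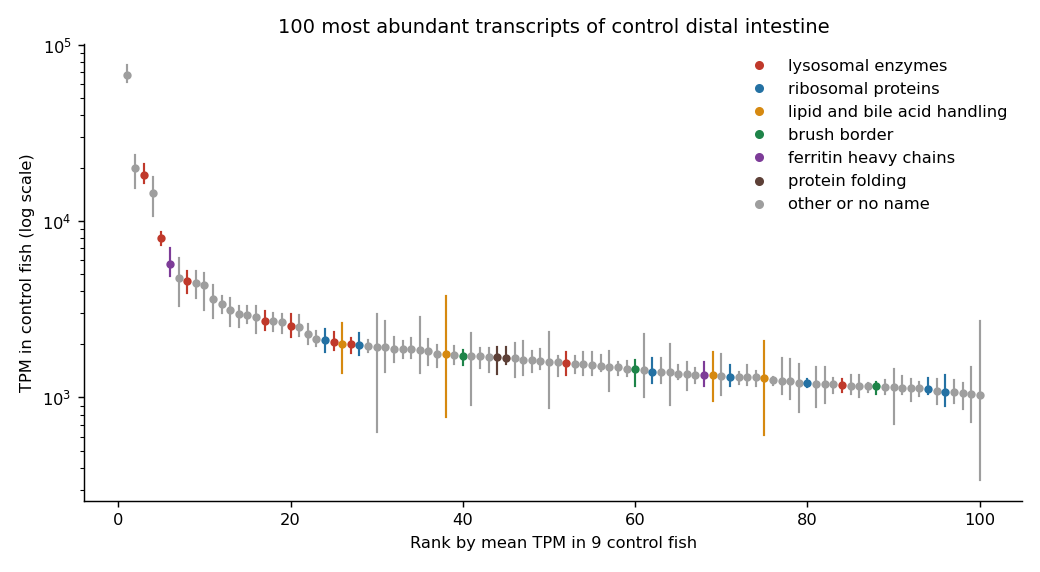
TPM of the 100 genes in the 9 CD fish (log axis) against their rank; points are means, vertical lines run from the lowest to the highest fish, and colours give the role. The curve falls steeply from 67512 TPM at rank 1 to 4366 TPM at rank 10 and then slowly to 1035 TPM at rank 100, where the spread between fish is wide.

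Lysosomal enzymes were the named group with the highest total. Their 9 genes held 4.30% ± 0.278 of all TPM in CD fish. Cathepsin B, a cysteine protease of the lysosome, was encoded by ctsbb (ENSSSAG00000007868, chr6:68420082-68426448, plus strand), which held rank 3 with 16434, 17564 and 21075 TPM in the lowest, median and highest CD fish. lgmn (chr9:47203214-47218016), legumain, which cuts proteins after asparagine and processes cathepsins, held rank 5 with 7271, 8075 and 8673 TPM. nagab (chr15:43206958-43210879), an α-N-acetylgalactosaminidase that removes sugars from glycoproteins, held rank 8 with 3891, 4611 and 5182 TPM. The 3 genes therefore differed in level by more than the range of the CD fish, with no overlap between them.

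The other 6 lysosomal genes lay between 2728 TPM and 1180 TPM on average in CD fish. They were ctsh and ctsa, the proteases cathepsin H and cathepsin A, fuca2, glb1 and hexb, which remove fucose, galactose and hexosamine from glycans, and sap3, the name used for the activator protein of GM2 ganglioside breakdown. Proteases and glycosidases were thus both present. The exons of hexb and ctsa are covered to 79.96% and 51.2% of their length by exons of another gene on the opposite strand.

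Ribosomal proteins gave 7 genes, which together held 1.02% ± 0.0753 of all TPM in CD fish. rplp1 (chr14:80966284-80968612), a protein of the stalk of the large subunit with 58.5% of its exon length covered on the opposite strand, had 1820, 2104 and 2453 TPM in the lowest, median and highest CD fish. rps20 (chr29:15817723-15820893), of the small subunit, had 1746, 1988 and 2321 TPM. rs2 (chr6:21267607-21270250), the gene of the small-subunit protein S2, had 1208, 1365 and 1665 TPM. The ranges of rplp1 and rps20 overlapped, and rs2 lay below both in each comparison of lowest, median and highest. In all, 64 ribosomal protein genes were tested.

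Iron storage was represented by both ferritin heavy chain genes of the list, the subunit that oxidises iron before it is stored. LOC100136564 (older symbol FRIH, chr26:25184344-25189694) held rank 6 with 4868, 5555 and 7003 TPM in the lowest, median and highest CD fish. LOC100194637 (older symbol frih, chr11:24835302-24841920) had 1162, 1360 and 1583 TPM. The lower gene's range lay entirely below that of the higher one.

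The genes of lipid and bile acid handling were the most uneven group. apoea (chr14:56481511-56490250), apolipoprotein E, had 1372, 2034 and 2626 TPM in the lowest, median and highest CD fish. apoa1 (chr9:121495382-121497859), apolipoprotein A-I of high density lipoprotein, had 770, 1085 and 3749 TPM. A second gene with apoa1 as an older symbol, LOC100136573 (chr20:54857469-54859204), had 957, 1315 and 1805 TPM. The 3 apolipoprotein genes and slc10a2, with 615, 1198 and 2077 TPM, overlapped one another.

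The brush border was represented by cdhr2 and vil1. cdhr2 encodes a cadherin that links neighbouring microvilli, and 2 overlapping gene models on the same strand carry its name. ENSSSAG00000120184 (chr5:4849858-4880656) had 1527, 1747 and 1864 TPM in the lowest, median and highest CD fish, and ENSSSAG00000038420 (chr5:4835286-4880611) had 1160, 1456 and 1632 TPM. Since the models share positions, their levels may not be independent. How reads in the shared part were assigned, and whether this lowered either level, was not tested. vil1, villin, which bundles actin in microvilli, had 1051, 1185 and 1220 TPM. It was named by its exons lying inside the RefSeq gene, and 85.4% of its exon length is covered on the opposite strand.

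Single genes stood for further roles. tmigd1, an adhesion protein of epithelial cells, had 1321, 1638 and 1717 TPM in the lowest, median and highest CD fish. cd74a, the invariant chain that accompanies MHC class II molecules, had 906, 1362 and 2010 TPM. Of the protein folding genes, ppia1, a cyclophilin, averaged 1696 ± 179 TPM and hspa8, a constitutive heat shock protein 70, averaged 1678 ± 121 TPM, a difference smaller than the spread of either gene. No gene of oxidative phosphorylation, translation factors, smooth muscle contraction, collagen and matrix, globins or exocrine pancreas in the lists was among the 100. The lists match names, so the 66 genes without one could not be placed in any of them.

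Most of the 100 genes varied little between fish of 1 diet. The median coefficient of variation, SD over mean within a diet averaged over the 5 diets, was 12.97% for the 100 genes and 22.2% for all genes tested, and 80 of the 100 were below 22.2%. Abundant genes have less counting error, so depth and variation between fish cannot be told apart in this comparison. The steadiest genes were LOC106611749 (6.93%), ENSSSAG00000046765 (7.13%), LOC106567183 (7.50%), LOC106563505 (8.26%) and vil1 (8.57%). The most variable were apoa1 (65.4%), LOC106578890 (58.3%), LOC100136573 (41.5%), apoea (40.9%) and ENSSSAG00000089470 (32.02%). These values include single outlying fish, among them LP20 replicate 5 for apoa1, LOC100136573 and apoea. The order without such fish is not reported here.

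A single fish held the highest values of the 3 apolipoprotein genes. LP20 replicate 5 had 11509 TPM of apoea, against 2219 ± 646 TPM in the other 8 LP20 fish (SD, n = 8). It had 12733 TPM of apoa1, against 1889 ± 1169 TPM, and 4133 TPM of LOC100136573, against 1080 ± 376 TPM in the same 8 fish. In the same fish both cdhr2 models, vil1 and cd74a were also at the highest value of the 45 fish, while slc10a2 (458 TPM) and LOC106560797 (44066 TPM) were at their lowest. The slc15a1 value given above moved with these, and its part in them was not tested.

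**Figure D3:**
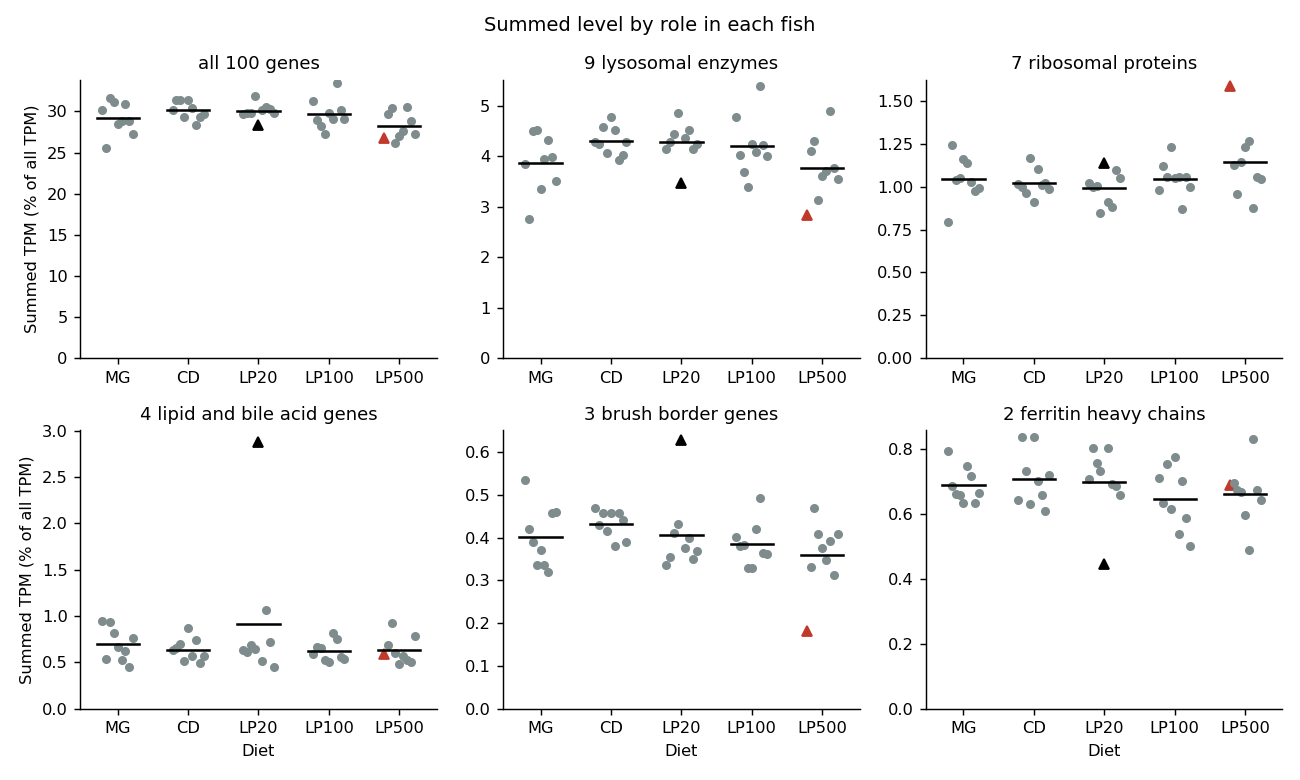
Summed TPM of all 100 genes and of 5 groups among them, as percent of all TPM, in each of the 9 fish of MG, CD, LP20, LP100 and LP500; horizontal lines are means. Black triangles mark LP20 replicate 5, which was high for lipid and brush border genes, and red triangles LP500 replicate 1, which was high for ribosomal protein genes and low for lysosomal enzymes.

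The list changed little between diets. Ranked in the same way in the other diets, the first 100 genes shared 98 with the CD list in MG fish, 96 in LP20, 95 in LP100 and 91 in LP500 fish. The first 10 genes were the same 10 in all 5 diets. Single fish shared between 73 and 96 genes of their own first 100 with the CD list, the fewest in LP500 replicate 1 (73) and LP20 replicate 5 (77). By contrast, 46 genes were among the first 100 of each of the 45 fish.

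The total of the 100 genes was 29.2% ± 1.96 of all TPM in MG fish. Over the L-137 doses it was 30.2% ± 1.08 in CD, 30.0% ± 0.933 in LP20, 29.7% ± 1.80 in LP100 and 28.3% ± 1.64 in LP500 fish (SD, n = 9 each). The lowest, median and highest LP500 fish had 26.1%, 27.6% and 30.5%, against 28.3%, 30.2% and 31.4% in CD fish, so the 2 groups overlapped. Most of the difference lay in the first 10 genes, which held 13.6% ± 1.65 in LP500 and 15.2% ± 0.972 in CD fish. The remaining 90 genes held 14.7% ± 0.386 in LP500 and 14.95% ± 0.327 in CD fish.

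The first gene and the lysosomal group were, like the total, lowest on average in LP500 fish. LOC106560797 averaged 63467 ± 8239 TPM in MG fish. Over the doses it averaged 67512 ± 6454 TPM in CD, 68752 ± 11086 TPM in LP20, 66358 ± 8277 TPM in LP100 and 59642 ± 8616 TPM in LP500 fish. The 9 lysosomal genes held 3.85% ± 0.580 of all TPM in MG fish, and 4.30% ± 0.278 in CD, 4.27% ± 0.374 in LP20, 4.198% ± 0.584 in LP100 and 3.77% ± 0.615 in LP500 fish. In both cases the means of CD, LP20 and LP100 lay within 1 SD of each other. Without LP500 replicate 1 the lysosomal genes held 3.88% ± 0.540 in LP500 fish (SD, n = 8), which is above the MG mean. Their place as lowest in LP500 thus rested on that fish. LOC106560797 averaged 60539 ± 8750 TPM in the same 8 LP500 fish, still below the other diets.

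The smaller groups overlapped across diets. The 7 ribosomal protein genes held 1.05% ± 0.128 of all TPM in MG fish, and 1.02% ± 0.0753 in CD, 0.995% ± 0.0981 in LP20, 1.05% ± 0.0986 in LP100 and 1.14% ± 0.207 in LP500 fish. The 3 brush border genes held 0.402% ± 0.0716 in MG fish, and 0.433% ± 0.0318 in CD, 0.406% ± 0.0888 in LP20, 0.384% ± 0.0499 in LP100 and 0.358% ± 0.0814 in LP500 fish. The 4 lipid and bile acid genes held 0.698% ± 0.181 in MG fish, and 0.639% ± 0.119 in CD, 0.913% ± 0.759 in LP20, 0.623% ± 0.107 in LP100 and 0.629% ± 0.146 in LP500 fish. The LP20 mean of the lipid and bile acid genes rested on LP20 replicate 5, at 2.88%, and was 0.667% ± 0.184 in the other 8 fish. The brush border genes held 0.378% ± 0.0328 in the same 8 LP20 fish. Without LP500 replicate 1 the brush border genes held 0.380% ± 0.0504 and the ribosomal protein genes 1.09% ± 0.133 in LP500 fish (SD, n = 8).

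The 2 ferritin genes held 0.687% ± 0.0544 of all TPM in MG fish, and 0.707% ± 0.0841 in CD, 0.697% ± 0.107 in LP20, 0.646% ± 0.0952 in LP100 and 0.661% ± 0.0903 in LP500 fish. epdl2 averaged 19338 ± 4732 TPM in MG fish, and 20050 ± 2272 TPM in CD, 20094 ± 3027 TPM in LP20, 20641 ± 2900 TPM in LP100 and 18529 ± 3504 TPM in LP500 fish. LOC106603912 averaged 15286 ± 4605 TPM in MG fish, and 14390 ± 1863 TPM in CD, 14014 ± 2297 TPM in LP20, 13531 ± 2706 TPM in LP100 and 13953 ± 2777 TPM in LP500 fish. The diet means of epdl2 and of LOC106603912 differed by less than the SD within any diet.

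The genes at ranks 9 and 10 had no name in the reference. ENSSSAG00000075108 (chr20:41308663-41316378) averaged 4373 ± 699 TPM in MG fish, and 4468 ± 591 TPM in CD, 4469 ± 484 TPM in LP20, 4425 ± 575 TPM in LP100 and 3782 ± 1208 TPM in LP500 fish. ENSSSAG00000069353 (chr13:54401168-54412815, minus strand) averaged 4368 ± 1366 TPM in MG fish, and 4366 ± 618 TPM in CD, 3836 ± 980 TPM in LP20, 3845 ± 954 TPM in LP100 and 3845 ± 690 TPM in LP500 fish. Exons on the opposite strand cover 91.0% of ENSSSAG00000069353.

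At the highest dose, edgeR called 1 of the 100 genes as higher and 3 as lower than in CD fish (quasi-likelihood test, Benjamini-Hochberg adjusted p under 0.05 over the 31729 genes tested). Over all tested genes the test called 7.45% as higher and 3.21% as lower in LP500 than in CD fish. The CD fish chose the list, so a high CD level favoured entry to the list, and nothing is read from the share of the list that was called. The median log2 fold change of the 100 genes, LP500 over CD, was -0.14, beside -0.00067 for all genes tested, and 71 of the 100 were lower. A list of the same length drawn from the 36 fish of the other diets, LP500 included, shared 96 genes with this one. Its median was -0.13. With so many genes in common and the same fish compared, the medians could hardly differ, and nothing is read from this. DESeq2 called 1 gene of the 100 as higher and 5 as lower. The share of all genes that DESeq2 called is not reported, so nothing is read from its counts here or below. By edgeR, 25 of the 100 and 24.9% of all genes tested had an unadjusted p under 0.05.

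LOC106578890 (ENSSSAG00000055826, chr19:45938851-45941726, plus strand), without a named function, was the gene called as higher. Its lowest, median and highest values were 557, 1836 and 5465 TPM in LP500 fish, against 340, 629 and 2701 TPM in CD fish. The groups overlapped, with 4 LP500 fish above all CD fish. The log2 fold change was 1.18 (SE 0.40, adjusted p = 0.0478 by edgeR). Without LP500 replicate 1, which held the 5465 TPM, it was 0.95 (adjusted p = 0.167). acta2 moved beside it, with 339, 929 and 3068 TPM in LP500 fish, against 231, 349 and 823 TPM in CD fish. The 2 smooth muscle markers matched, acta2 and myl9b, summed to between 442 and 3667 TPM in LP500 fish and between 307 and 1019 TPM in CD fish. A score of these minus 4 enterocyte markers, slc15a1 and lrp2a among them and cdhr2 left out, was added to the fit. Each marker had equal weight, although lrp2a and slc15a1 averaged only 0.116 and 0.851 TPM in CD fish. The score itself differed between diets, with means of -0.717 ± 0.435 in CD and 0.634 ± 1.33 in LP500 fish. Fitting it can therefore also remove part of a diet difference. With the score in the fit, the log2 fold change of LOC106578890 was 0.12 (adjusted p = 0.909 by edgeR). Over 25 alternative fits the adjusted p lay between 0.0187 and 0.909, and 9 of them called the gene.

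LOC106578890 was higher on average than in CD fish in the other diets as well, without a call. Its lowest, median and highest values were 599, 1130 and 3251 TPM in MG fish, 413, 1906 and 3605 TPM in LP20 fish and 356, 2258 and 3321 TPM in LP100 fish. Against the same CD fish, the log2 fold change was 0.51 in MG (adjusted p = 0.837), 0.84 in LP20 (adjusted p = 0.358) and 1.09 in LP100 (adjusted p = 0.107, all by edgeR). LP500 over LP100 it was 0.09 (SE 0.39, adjusted p = 0.962).

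LOC106600904 (ENSSSAG00000048237, chr3:54141377-54155519, minus strand), also without a named function, was the first of the 3 genes called as lower. It had 1370, 1697 and 1907 TPM in the lowest, median and highest LP500 fish, against 1679, 1896 and 2082 TPM in CD fish. The groups overlapped, and 4 LP500 fish lay below all CD fish. The log2 fold change was -0.24 (SE 0.08, adjusted p = 0.0373 by edgeR), and -0.19 (adjusted p = 0.156) without LP500 replicate 1 and -0.16 (adjusted p = 0.508) with the marker score in the fit. The adjusted p lay between 0.0196 and 0.508 over the 25 alternative fits, of which 9 called it. It was also the only gene of the 100 with a call in the fit over the 4 L-137 levels (36 fish, CD included), where it fell by 0.08 per level on the log2 scale (SE 0.03, adjusted p = 0.0325); that fit called 7.33% of 31213 genes as rising and 3.38% as falling. A neighbour on the same strand, LOC106600905, lies 47105 bases away and was 1 of the 100 as well.

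Leaving out LP500 replicate 1 shrank the log2 fold change more for the other 2 genes called as lower. LOC106600904 lost its call without that fish as well. LOC106588520 (ENSSSAG00000074099, chr27:6098702-6109402, minus strand) had 424, 1187 and 1582 TPM in the lowest, median and highest LP500 fish, against 1372, 1531 and 1718 TPM in CD fish, with 7 LP500 fish below all CD fish. It differed by -0.43 on the log2 scale (SE 0.15, adjusted p = 0.0469 by edgeR), by -0.29 (adjusted p = 0.133) without that fish and by -0.19 (adjusted p = 0.620) with the marker score in the fit. LOC106568714 (ENSSSAG00000062353, chr14:8595892-8597998, plus strand) had 322, 921 and 1048 TPM in LP500 fish, against 933, 1070 and 1259 TPM in CD fish. It differed by -0.36 (SE 0.12, adjusted p = 0.0420 by edgeR), by -0.23 (adjusted p = 0.0935) without that fish and by -0.19 (adjusted p = 0.577) with the marker score. It stood at rank 97 and left the first 100 in each of the other 4 diets, where it averaged 1024 TPM in MG, 991 TPM in LP20, 979 TPM in LP100 and 871 TPM in LP500 fish, beside 1071 TPM in the CD fish that chose the list. Its difference from CD is therefore a description. The adjusted p lay between 0.0310 and 0.577 for LOC106568714 (called in 9 of 25 alternative fits) and between 0.0346 and 0.620 for LOC106588520 (called in 8 of 25). The lowest LP500 value of either gene was that of replicate 1. In bulk tissue, fewer cells of a type and less RNA per cell cannot be told apart.

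**Figure D4:**
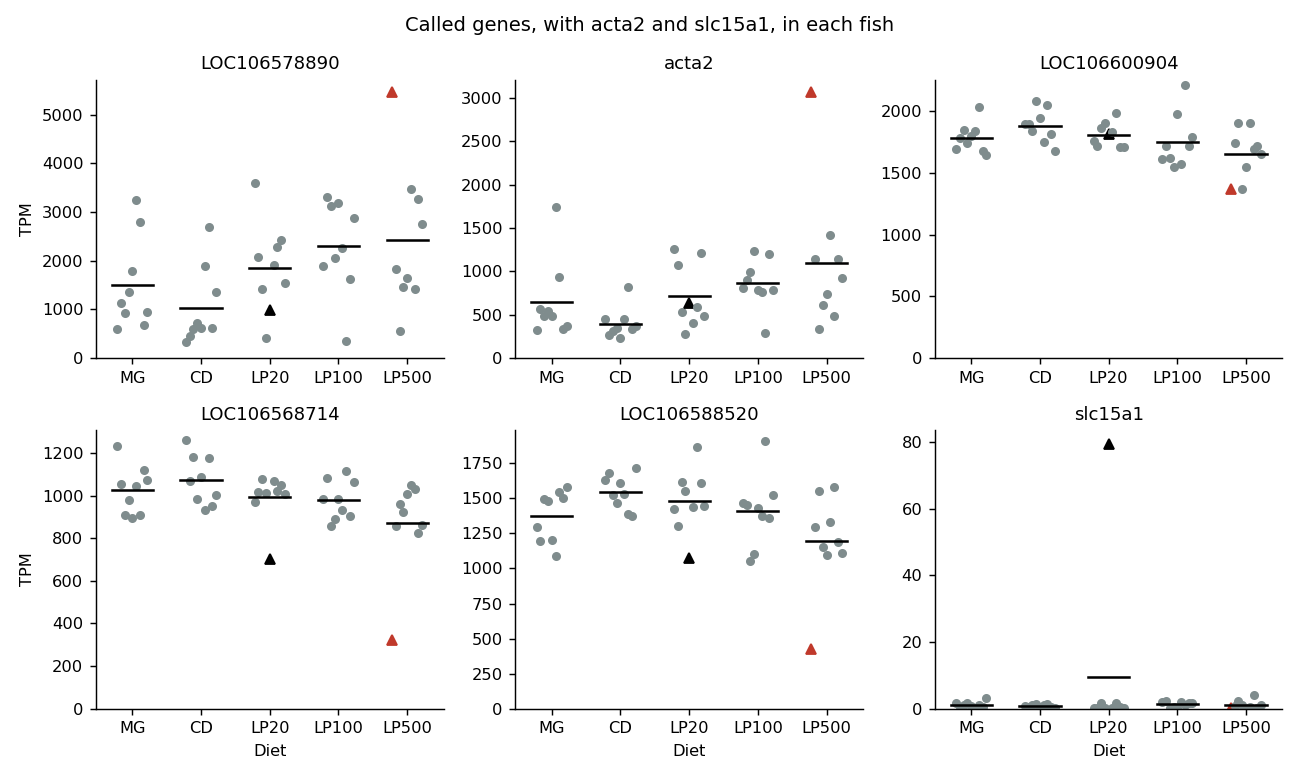
TPM of the 4 genes called in LP500 against CD, and of acta2 and slc15a1, in each of the 9 fish of MG, CD, LP20, LP100 and LP500; horizontal lines are means. The red triangle, LP500 replicate 1, is the highest of the 45 fish for LOC106578890 (5465 TPM) and acta2 (3068 TPM) and the lowest for LOC106568714 (322 TPM) and LOC106588520 (424 TPM), and the black triangle, LP20 replicate 5, is the highest for slc15a1 (79.5 TPM).

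Of the first 10 genes, 0 were called at LP500. LOC106560797 had 47110, 58737 and 72704 TPM in the lowest, median and highest LP500 fish, against 61292, 64277 and 76887 TPM in CD fish (log2 fold change -0.24, SE 0.11, adjusted p = 0.172 by edgeR). ctsbb had 11890, 15839 and 21397 TPM in LP500 fish, against 16434, 17564 and 21075 TPM in CD fish (-0.25, SE 0.13, adjusted p = 0.236). Both genes were lower on average in LP500, and neither passed the test.

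lgmn had 4461, 7286 and 8710 TPM in the lowest, median and highest LP500 fish, against 7271, 8075 and 8673 TPM in CD fish (-0.28, SE 0.11, adjusted p = 0.102 by edgeR). LOC106577505 (ENSSSAG00000119332, chr2:24257340-24258911), at rank 7, had 2115, 3293 and 4972 TPM in LP500 fish, against 3319, 4369 and 6158 TPM in CD fish (-0.53, SE 0.19, adjusted p = 0.0654). Of this gene, 46.7% of the exon length is covered by exons on the opposite strand. The cdhr2 model ENSSSAG00000038420 had 226, 1146 and 1555 TPM in LP500 fish, against 1160, 1456 and 1632 TPM in CD fish (-0.56, SE 0.20, adjusted p = 0.0700). The lowest value of this cdhr2 model was again that of LP500 replicate 1, without which the difference was -0.39 (adjusted p = 0.163). With the marker score in the fit it was -0.08 (adjusted p = 0.839), and that of LOC106577505 was -0.28 (adjusted p = 0.632).

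**Figure D5:**
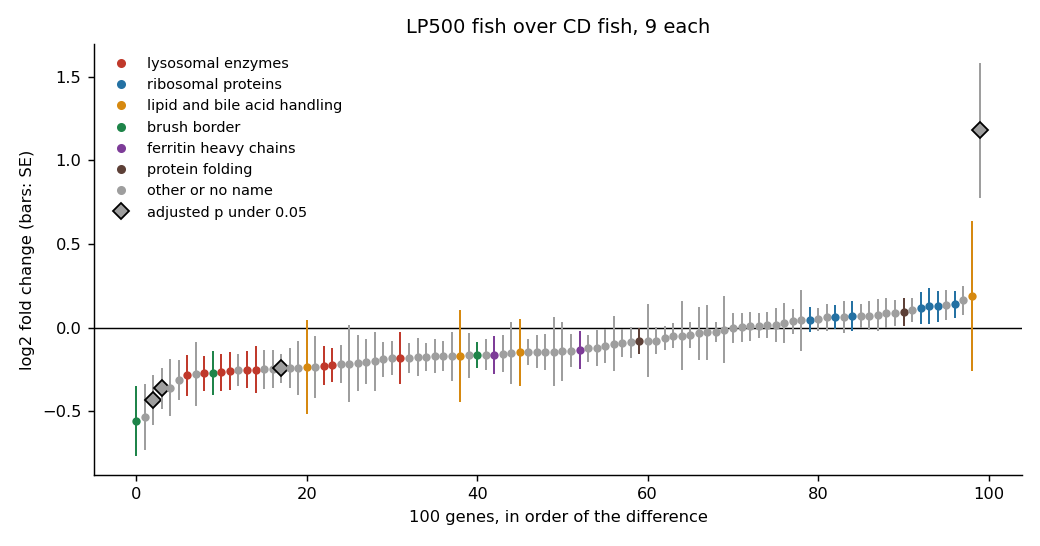
Log2 fold change of the 100 genes in LP500 over CD fish (9 each), in rising order. Bars are standard errors derived from the quasi-likelihood test, colours give the role and outlined diamonds mark the 4 genes with an adjusted p under 0.05. All 9 lysosomal enzymes lie below 0 and all 7 ribosomal proteins above 0, and LOC106578890 stands alone at 1.18.

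The 2 largest named groups lay on opposite sides at LP500. All 9 lysosomal genes of the list were lower in LP500 than in CD fish, with a median log2 fold change of -0.25 and no call. Of the 36 genes tested in the list of lysosomal enzymes and endocytic uptake, 31 were lower, 1 fell (lamp2, a protein of the lysosome membrane, -0.29, SE 0.09, adjusted p = 0.0270 by edgeR) and 0 rose, with a median of -0.18. All 7 ribosomal protein genes of the list were higher, with a median of 0.12 and no call. Of the 64 tested, 64 were higher, 1 rose (rssa, of the small subunit, 0.30, SE 0.10, adjusted p = 0.0388) and 0 fell, with a median of 0.10. Over all genes tested, 7.45% were called as higher and 3.21% as lower. Each list held 1 call, and nothing is read from so few. With the smooth muscle minus enterocyte score in the fit, 48 of the 64 ribosomal protein genes were lower (median -0.04), while 27 of the 36 lysosomal and endocytic genes were lower (median -0.10). The enterocyte markers of the score include the endocytic receptor genes cubn and lrp2a. The score thus shares the theme of the lysosomal and endocytic list, and the smaller median there is a description. Without LP500 replicate 1 the median of the ribosomal protein genes was 0.06 and that of the lysosomal and endocytic genes -0.12.

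The list of actin, brush border and cytoskeleton held calls in both directions. How these calls fared without LP500 replicate 1 or with the marker score is not reported here. Of its 21 genes tested, 3 fell in LP500 against CD (slc9a3r1, cdhr5b and myo7ba, which act in the scaffold and the links of microvilli). The 3 that rose were krt18b, myl6 and tpm4, a keratin, a myosin light chain and a tropomyosin. None of the 6 was among the 100, of which both cdhr2 models (-0.27 and -0.56) and vil1 (-0.16) were lower without a call. Beside the counts of this list and of the following ones stand the shares over all genes tested, 7.45% called as higher and 3.21% as lower. In the list of lipid and bile acid handling 0 of 12 genes rose and 1 fell (scp2b, log2 fold change -0.23, adjusted p = 0.0242 by edgeR), and in that of iron, metal and redox 0 of 14 rose and 1 fell (gstt1a, -0.32, adjusted p = 0.0371). Of 22 protein folding genes 2 rose (dnajb5 and hspa12b) and 1 fell (dnajb12a), and of 18 junction and mucus genes and 6 antigen presentation genes 0 were called, by edgeR. Lists of this length would hold few calls at those shares, and nothing is read from these counts. Of the 9 smooth muscle genes tested, 6 rose and 0 fell in LP500, with acta2 at a log2 fold change of 1.41 (SE 0.34, adjusted p = 0.0073 by edgeR). Of the 15 collagen and matrix genes, 11 rose and 0 fell. None of these was among the 100, and their part in the values of the list was not tested beyond the fit with the marker score.

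The lower doses gave no call in the list. For LP100 against CD edgeR called 0 of the 100, with 10 at an unadjusted p under 0.05 (18.5% of all genes), while 3.6% of all genes tested were called as higher and 0.473% as lower. The smallest adjusted p was that of crip1, with 919, 1021 and 1274 TPM in the lowest, median and highest LP100 fish, against 979, 1180 and 1649 TPM in CD fish (log2 fold change -0.30, SE 0.10, adjusted p = 0.0867). For LP20 against CD edgeR called 0 of the 100 and 0% of all genes, with 8 of the 100 at an unadjusted p under 0.05 (12.9% of all genes). The smallest adjusted p was that of LOC106565226, with 1338, 1568 and 1885 TPM in LP20 fish, against 1589, 1894 and 2213 TPM in CD fish (-0.31, SE 0.10, adjusted p = 0.162). DESeq2 called 0 of the 100 in both comparisons.

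For MG against CD edgeR called 0 of the 100 and 0% of all genes, with 5 of the 100 at an unadjusted p under 0.05 (7.14% of all genes), and DESeq2 called 0. hexb had the smallest adjusted p, with 1109, 1369 and 1600 TPM in the lowest, median and highest MG fish, against 1349, 1538 and 1817 TPM in CD fish (-0.27, SE 0.10, adjusted p = 0.630). All 9 lysosomal genes were lower in MG than in CD fish (median -0.18), with 28 of 36 lower among those tested, and the LP500 and MG comparisons share the same CD fish. ctsbb had 9353, 15175 and 20850 TPM in MG fish, against 16434, 17564 and 21075 TPM in CD fish.

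The 6 comparisons between diets other than CD used no fish that chose the list. edgeR called 0 of the 100 genes in each of them, and 0% of all genes tested. At an unadjusted p under 0.05 there were 21 genes of the list for LP500 against LP20 (13.5% of all genes), 6 for LP500 against LP100 (11.4%) and 4 for LP500 against MG (12.4%). There were 4 for LP100 against MG (6.4%), 3 for LP20 against MG (4.14%) and 1 for LP100 against LP20 (6.46%). The share of the list was above that of all genes in LP500 against LP20 only, a comparison that was not tested. For LP500 against LP20 the number was 9 without LP500 replicate 1 and 30 without LP20 replicate 5. The share of all genes in these refits is not reported here, so the 13.5% is no measure for them. Nothing is read from either number.

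The smallest adjusted p among these 6 comparisons was that of apoea in LP500 against LP20. It had 1028, 1791 and 2750 TPM in the lowest, median and highest LP500 fish, against 1363, 2033 and 11509 TPM in LP20 fish. The log2 fold change was -0.89 (SE 0.28, adjusted p = 0.157 by edgeR), and DESeq2 called it, as the only gene of the list in any of the 6 comparisons (-0.89, adjusted p = 0.0484). Without LP20 replicate 5 the edgeR value was -0.35 (SE 0.20, adjusted p = 0.456). The difference was smaller without that fish, and neither edgeR fit called it.

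The next was rs2, with 1293, 1543 and 2153 TPM in the lowest, median and highest LP500 fish, against 1173, 1403 and 1444 TPM in LP20 fish, and 7 LP500 fish above all LP20 fish (0.22, SE 0.07, adjusted p = 0.191 by edgeR, and 0.17, adjusted p = 0.334, without LP500 replicate 1). All 7 ribosomal protein genes of the list and all 64 tested were higher in LP500 than in LP20 fish (median 0.15 for the 64, beside 0.0073 for all genes), with 0 called. The median of the 64 was 0.10 without LP500 replicate 1 and 0.09 with the smooth muscle minus enterocyte score in the fit. All 9 lysosomal genes of the list and 34 of the 36 lysosomal and endocytic genes tested were lower in LP500 than in LP20 fish (median -0.20 for the 36), with 0 called. Ribosomal protein genes vary together within a fish, so their number does not add independent evidence. The 9 lysosomal genes summed to between 2.83% and 4.89% of all TPM in single LP500 fish, and their number is likewise a description. The lysosomal median of this comparison without LP500 replicate 1 or with the score is not reported here.

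The other 5 comparisons without CD fish gave no adjusted p below that of LOC106601815 in LP500 against LP100. It had 1246, 1334 and 1930 TPM in the lowest, median and highest LP500 fish, against 1062, 1278 and 1419 TPM in LP100 fish (0.19, SE 0.07, adjusted p = 0.261 by edgeR), the highest being LP500 replicate 1, without which the difference was 0.13 (adjusted p = 0.418). For LP500 against MG it was LOC106577505, with 2115, 3293 and 4972 TPM in LP500 fish, against 3263, 4223 and 6082 TPM in MG fish (-0.42, SE 0.19, adjusted p = 0.369). For LP100 against LP20 it was apoea, which had 1578, 1926 and 2727 TPM in LP100 fish, against 1363, 2033 and 11509 TPM in LP20 fish (-0.77, SE 0.28, adjusted p = 0.571). Without LP20 replicate 5, which held the 11509 TPM, the difference was -0.23 (SE 0.20, adjusted p = 0.821). These groups overlapped as well.

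In the last 2 comparisons several genes shared the smallest adjusted p, and the one with the smallest unadjusted p is given. For LP100 against MG it was LOC101448032, with 1171, 1344 and 2015 TPM in the lowest, median and highest LP100 fish, against 508, 1167 and 1533 TPM in MG fish (0.40, SE 0.17, adjusted p = 0.776 by edgeR). For LP20 against MG it was LOC106565226, with 1338, 1568 and 1885 TPM in LP20 fish, against 1482, 1893 and 2474 TPM in MG fish (-0.25, SE 0.10, adjusted p = 0.9995).

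The edge of the list was narrow. The 3 genes just inside it were LOC106569991 with 1058 ± 112 TPM, LOC106565952 with 1051 ± 296 TPM and LOC106578890 with 1035 ± 795 TPM in CD fish (SD, n = 9). The 3 genes just outside were rpl8, a protein of the large ribosomal subunit, with 1025 ± 54.6 TPM, LOC106560321 with 1017 ± 79.8 TPM and ENSSSAG00000116104 with 1012 ± 972 TPM. Ranked by the median of the CD fish in place of the mean, LOC106578890 and LOC106565952 left the list.

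Length and strand touch the list as well. The 100 genes had a median exon length of 1596 bases, against 3740 bases for all genes tested, and TPM divides by this length. A list by counts without length shared 57 genes with it. More than 50% of the exon length was covered by exons on the opposite strand in 16 of the 100 genes and in 6.80% of the genes tested. In 3 places both partners were among the 100, as with LOC100136485 (2516 TPM in CD fish) and ENSSSAG00000107075 (1872 TPM) on chromosome 14. The reads were counted by strand, so that a partner's fragments are not meant to enter, and how far they do was not tested.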

How the data were processed

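RNA of 45 distal intestines, 1 per fish and 9 per diet, was sequenced after reverse-stranded library preparation. Per the study's methods, reads were aligned to Ssal_v3.1 through nf-core and assigned to genes with featureCounts (Subread 1.5.1 in the submitters' processing notes), as fragments, by strand and without multi-mapping reads, so that near-identical gene copies are undercounted. The authors deposited 1 table per fish with raw counts and the exon length of 69389 genes, without genes of the mitochondrial genome. TPM was computed here from count and length. Names were taken by position from a RefSeq gene table of the same assembly. An overlap of at least 0.5 of the span came first, then exons inside 1 gene. The strand of the RefSeq gene was not compared, so a gene overlapped on the opposite strand could carry its partner's name.

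Counts were tested with edgeR 4.0.16 (R 4.3.3, quasi-likelihood, TMM, filterByExpr, all 45 fish in 1 fit), and p-values were adjusted by Benjamini-Hochberg over all 31729 genes tested. A slope over CD, LP20, LP100 and LP500 in 36 fish was fitted in the same way. Each SE of a log2 fold change was derived from the quasi-likelihood F test. It is the absolute log2 fold change divided by the square root of F, and so is approximate. DESeq2 1.42.0 was an alternative. The procedure was tested on simulated data. Of 200 genes changed in the simulated LP500 fish, edgeR recovered 176, and it also called 13 unchanged genes. The changes were log2 fold changes of 1 or more in size, and smaller ones were not simulated. Each gene was drawn on its own, without tanks, outlying fish or variation shared between genes. The recovery therefore does not show how reliable the calls in the real fish are.

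Named are the first 10 genes, the 3 most abundant of each role list, called genes (or the gene with the smallest adjusted p), the 5 most and 5 least variable genes, and 3 genes on each side of the limit. acta2, slc15a1, LOC106600905, the partner genes and the called genes of role lists were named in addition, after their values were seen. The 100 genes and the role lists were chosen with earlier results of these data known, and the symbol patterns of the lists were extended once the names had been seen. RNA purification is described differently in the labels and in the study's methods. Not every gene of the list is reported here by name.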

Additional observations from a re-analysis of the deposited data

Results flagged for a closer look

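In each diet of 9 fish the highest and the lowest fish were compared with their nearest neighbour, and a gap beyond Dixon's critical share of the range marked a fish far from the others. This held for 29 of 245 groups looked at. Chance marks about 1 in 20 unrelated groups. These groups share fish and genes, and some genes were named for their spread, so that rate is no measure here.

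Most of these were LP20 replicate 5. It lay far above the other LP20 fish in apoea (11509 TPM), apoa1 (12733 TPM), LOC100136573 (4133 TPM), LOC106577505 (9618 TPM), cd74a (3114 TPM), vil1 (1361 TPM) and both cdhr2 models (2730 and 2188 TPM). It lay far below them in LOC106560797 (44066 TPM), lgmn (4544 TPM), LOC100136564 (3623 TPM), LOC106567183 (1032 TPM) and LOC106568714 (701 TPM). By group it was far above in the lipid and bile acid genes (2.88% of all TPM), the brush border genes (0.628%) and antigen presentation, of which cd74a is the only gene (0.311%), and far below in the ferritin genes (0.445%).

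LP500 replicate 1 lay far below the other LP500 fish in LOC106588520 (424 TPM), LOC106568714 (322 TPM) and vil1 (715 TPM), and far above in LOC106601815 (1930 TPM).

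Other fish stood apart in single genes, all as the highest. ENSSSAG00000075108 had 6642 TPM in LP500 replicate 6 and 5553 TPM in LP20 replicate 6. apoea had 2727 TPM in LP100 replicate 6, ENSSSAG00000089470 had 3277 TPM in LP100 replicate 4 and ENSSSAG00000046765 had 1466 TPM in LP100 replicate 3. MG replicate 3 had 2269 TPM of cd74a (0.227% of all TPM), and MG replicate 2 had 0.401% in the protein folding genes.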

How the results depend on the processing

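The calls at LP500 against CD moved with the processing. The share of all genes called in each setting below is not reported here, so the counts describe the list only. Genes of the 100 called as higher numbered 0, in place of 1, without the filter on low counts, with the marker score in the fit, with counts summed over runs of 3 consecutive fish numbers, or with the CD and LP500 fish alone. Genes called as lower numbered 0, in place of 3, without the filter, with the marker score and with CD and LP500 fish alone, and 5 by DESeq2. Leaving out 1 run of fish, or the CD fish with the most fragments, gave 0 to 1 higher and 0 to 6 lower, the 6 without LP20 run 2 and also without LP20 replicate 5. Without LP500 replicate 1 there were 0 in either direction, and without both fish 0 higher and 1 lower, settings chosen after seeing the data. For LP100 against CD, 1 gene (vil1) was lower with the LP100 and CD fish alone, and leaving out runs gave 0 to 1 in each direction. DESeq2 called 1 gene in LP500 against LP20, apoea. LP20 against CD, MG against CD and, apart from that, the 6 comparisons without CD fish gave 0 in all settings run. A list by counts without length shared 57 of the 100 genes and held 0 genes called as higher and 8 as lower. A list by the median of the CD fish held 0 and 3, and one from the 36 other fish held 1 and 2. Leaving out genes under 300 bases, or the 3 genes set aside before TPM was computed, left 1 and 3. These counts describe the lists only. With run sums lgmn (-0.30) and LOC106577505 (-0.54, and -0.53 by DESeq2) passed the threshold and LOC106600904 (-0.27) and LOC106578890 (1.103) did not. No paired analysis was possible because the labels give no replicate numbers, and those used here name the fish of a diet and tie no fish to one of another diet. The planned TPM without mitochondrial genes removed only the 3 genes set aside.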

Other observations

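ENSSSAG00000116104, just outside the limit and without a name in the reference, was either absent or abundant. It had 0 fragments in 14 of 45 fish and at least 2266 fragments, or 1296 to 3869 TPM, in the other 31. The fish with fragments numbered 4 of 9 in MG, and 5 in CD, 8 in LP20, 6 in LP100 and 8 in LP500. It entered the first 100 genes of MG, LP20, LP100 and LP500 fish. Its mean in a diet did not follow the number of fish with fragments alone. The mean was 1175 TPM in MG, and 1012 TPM in CD, 1732 TPM in LP20, 1594 TPM in LP100 and 1511 TPM in LP500 fish.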
